A study of Mus musculus with 27 samples.

Results

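RNA levels were compared between mouse mammary tumour cell lines that carried only the mutant dHD1 form of Bcl9 and Bcl9L (dHD1/-) and lines that carried dHD1 beside a floxed wild-type copy (dHD1/fl), both grown without added cytokine. The comparison used the 2 untreated dHD1/- and the 2 untreated dHD1/fl libraries, 4 of 27 libraries in the series, chosen by genotype and treatment from the sample labels. The cells came from thoracic mammary tumours of female MMTV-PyMT mice on the FVB/N background, in which the MMTV promoter drives the polyoma middle T oncogene in the mammary epithelium. In the dHD1 alleles of Bcl9 and Bcl9L the HD1 domain is deleted in frame, and all 4 lines carried these alleles, so the dHD1/fl lines were not wild type. In dHD1/- lines the floxed alleles had been removed in culture with an adenovirus that expresses Cre and GFP, followed by sorting of GFP-positive cells. The methods also name a control virus with GFP alone, but whether the dHD1/fl lines of these libraries received it is not given in the sources used here. Per the labels, untreated cells received growth medium alone and are listed at 4 days, and RNA of all samples was isolated together. Per the labels the 2 replicates of a genotype were cell lines from different mice. The p-values rest on the spread between replicates, pooled over all 27 libraries, which came from 9 cell lines. Libraries of one line under different treatments were counted as independent, although they were correlated (0.642 within a cell line). The p-values can therefore be too small as a measure of the spread between lines. Whether dHD1/- line 1 was made from dHD1/fl line 1 is not given in the sources used here.

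Bcl9 and Bcl9L are scaffold proteins of canonical Wnt signalling. Their HD2 domain binds β-catenin and their HD1 domain binds Pygopus, a PHD finger protein, so that a chain of adapters forms on β-catenin bound to TCF/LEF factors at Wnt target genes. Removal of HD1 cuts the link to Pygopus and leaves the link to β-catenin. In the epithelial-mesenchymal transition (EMT) cells lose E-cadherin and gain vimentin. TGFβ induces EMT in cultured tumour cells of this model, and the paper proposes that Wnt signalling may take part.

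The lines within each genotype were far apart. Cdh1 (E-cadherin) was at 606 CPM (reads of a gene per 1000000 reads) in dHD1/fl line 1 and 0.522 in line 2, and at 817 in dHD1/- line 1 and 0.237 in line 2. Vim (vimentin) was at 198 and 4188 CPM in dHD1/fl lines 1 and 2, and at 156 and 3678 in dHD1/- lines 1 and 2. Line 1 of each genotype thus had epithelial marker RNA, whereas line 2 of each genotype nearly lacked Cdh1 and Epcam (at most 0.522 CPM) and had high Vim, against its label as an epithelial tumour line. Krt8 was the exception, at 0.336 CPM in dHD1/fl line 2 and 1089 in dHD1/- line 2, where its usual partner Krt18 was at 2.23, and it was called when dHD1/fl line 1 was left out (limma adjusted p 2.1e-06). Over all 13270 tested genes the correlation of log2(CPM + 1) was 0.861 between the dHD1/fl lines and 0.885 between the dHD1/- lines, and it was highest between line 2 of each genotype (0.949). Between line 1 of each genotype it was 0.915. The number of genes that differed at least 2-fold (on that scale) was 2817 between the dHD1/fl lines and 2666 between the dHD1/- lines. It was 2320 between line 1 and 1362 between line 2 of each genotype. The 4 libraries held 21.86 M to 33.69 M reads, so a gene without reads could still lie at up to 0.089 to 0.1372 CPM, the worth of 3 reads (counting error only). In such bulk samples fewer cells of a type and less RNA per cell cannot be told apart.

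**Figure D1:**
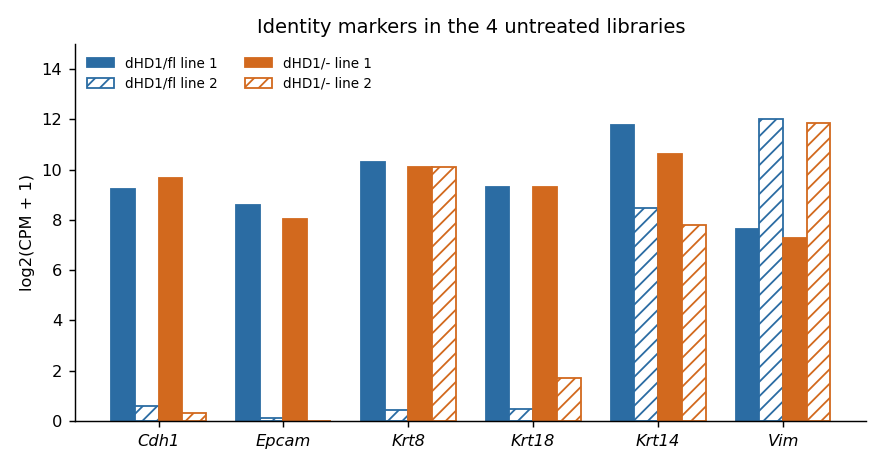
Level of 6 identity markers, as log2(CPM + 1) on the vertical axis, in each of the 4 untreated libraries (filled bars, line 1; hatched bars, line 2; blue, dHD1/fl; orange, dHD1/-). Cdh1, Epcam and Krt18 are high in line 1 of each genotype and low in line 2, Vim is higher in line 2, and Krt8 is near 0 in dHD1/fl line 2 alone.

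The first question was which genes separated the genotypes in spite of this spread. A gene was counted as not overlapping when the lower of its values in one genotype exceeded the higher of its values in the other, and its gap is the distance between these values on the log2(CPM + 1) scale. The groups did not overlap for 3565 of 13270 genes (26.9%), of which 1422 (10.7%) were higher and 2143 (16.1%) lower in dHD1/- lines. These directions depended on scaling, since with median-of-ratios scaling 1825 genes were higher and 1660 lower. A gap of at least 1, that is, a distance of at least 2-fold in CPM + 1, was found for 111 genes (0.836%). Of these, 68 (0.512%) were higher and 43 (0.324%) lower in dHD1/- lines, against 76 and 43 with median-of-ratios scaling and 144 and 79 with a pseudocount of 0.1. The lower group had under 1 CPM in both lines for 25 of the 68 and 16 of the 43 genes. Vegfc, a lymphatic growth factor, lay just inside a gap of 1 among the higher genes (4.02 and 10.6 CPM in dHD1/fl, 22.3 and 27.3 in dHD1/-), and Cxcl12, a chemokine, just outside (1.23 and 21.3, then 89.7 and 43.6). Among the lower genes Tns4, a tensin of focal adhesions, was just inside (1370 and 97.8, then 43.5 and 45.1), and Cnp, an enzyme best known from myelin, just outside (88.1 and 76.2, then 32.2 and 37.7). By limma, at an adjusted p of at most 0.05 and a log2 fold change of at least 1, 9 genes were called (0.0678% of those tested), 6 higher (0.0452%) and 3 lower (0.0226%), and all 9 had a gap of at least 1.

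**Figure D2:**
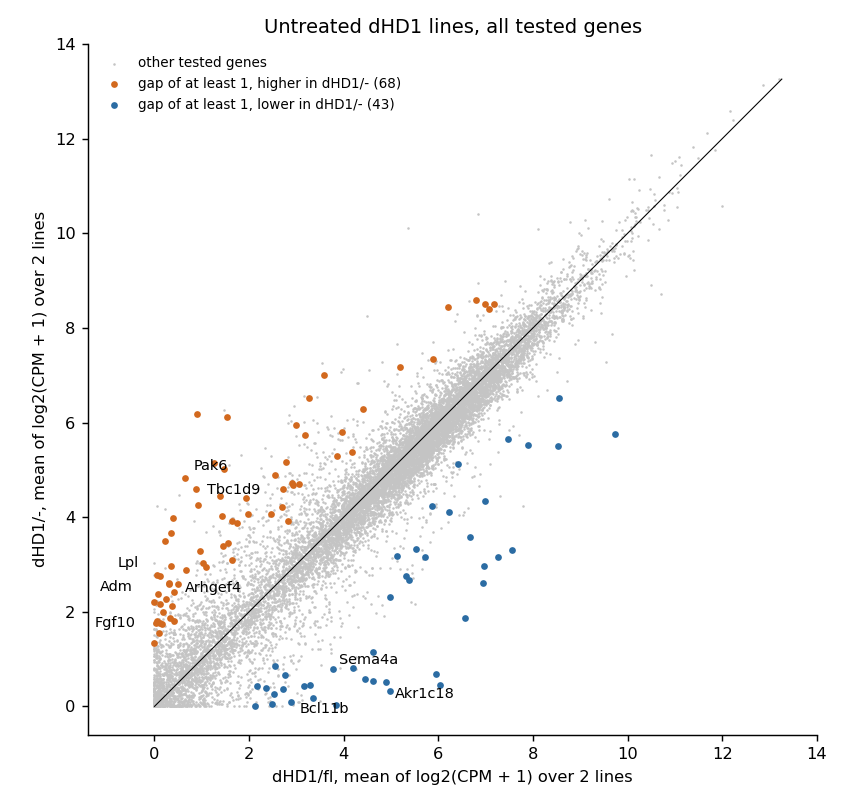
Mean log2(CPM + 1) of each of the 13270 tested genes over the 2 untreated dHD1/fl lines (horizontal) and the 2 untreated dHD1/- lines (vertical), with the line of equal level. The 68 genes (orange) and 43 genes (blue) with a gap of at least 1 lie away from that line, many of them near 0 in one genotype, and the 9 called genes are named.

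The 6 genes called higher in dHD1/- lines were at or near 0 in dHD1/fl lines. Adm (chromosome 7, 110627657 to 110629820 in GRCm38, as all positions here), which encodes the vasodilator peptide adrenomedullin, had 0 reads in both dHD1/fl lines and was at 4.32 and 3.03 CPM in dHD1/- lines 1 and 2. It was thus at least 29.5-fold higher, set against a limit of 3 reads per library, and the fitted log2 change was 2.21 ± 0.21 (SE; limma adjusted p 9.7e-05). Fgf10 (chromosome 13, 118714699 to 118792573), a fibroblast growth factor that the mammary mesenchyme supplies to the epithelium, had 0 reads and 1 read in dHD1/fl lines and 50 and 90 reads (2.14 and 2.67 CPM) in dHD1/- lines. Both genes were low in every library, and in each the dHD1/- lines lay well above the limit of 3 reads that the dHD1/fl lines did not pass. A gene was tested if it reached 1 CPM in 2 or more libraries, and both genes did so only in dHD1/- libraries. They thus entered the test through the group in which they were high. Without this filter 14 genes were called, among them all 9 called with it.

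Lpl (chromosome 8, 68880555 to 68906932), the lipase that frees fatty acids from lipoproteins, was at 0 and 0.0746 CPM in dHD1/fl and at 10.6 and 3.09 in dHD1/- lines. Its log2 fold change was 2.73 ± 0.49 (SE; limma adjusted p 0.041), and that of Fgf10 was 1.74 ± 0.24 (adjusted p 0.00521). Lpl also entered the test through dHD1/- libraries, since outside them it reached 1 CPM only in an untreated dHD2/fl library (1.42 CPM). Pak6 (chromosome 2, 118663045 to 118698020), a p21-activated kinase that binds the androgen receptor, was at 0 and 1.42 CPM in dHD1/fl lines and at 33.0 and 22.9 in dHD1/- lines (4.20 ± 0.57 on the log2 scale, SE; adjusted p 0.00521). Arhgef4, also called Asef (chromosome 1, 34677949 to 34812754), is an exchange factor for small GTPases that binds Apc. It was at 0.137 and 0.559 CPM in dHD1/fl and 5.64 and 3.29 in dHD1/- lines (log2 fold change 2.00 ± 0.33, SE; adjusted p 0.022). Tbc1d9 (chromosome 8, 83165352 to 83272940), of a family of Rab GTPase-activating proteins, was at 0.96 and 0.746 CPM in dHD1/fl and at 54.6 and 9.56 in dHD1/- lines (adjusted p 0.0327). Between the dHD1/- lines Lpl and Tbc1d9 were unequal, with line 1 the higher, whereas Fgf10 and Pak6 differed less, and in none of these 6 genes did the genotypes overlap.

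The 3 genes called lower in dHD1/- lines were expressed at similar levels in the 2 dHD1/fl lines. Akr1c18 (chromosome 13, 4132615 to 4150646), the 20α-hydroxysteroid dehydrogenase that inactivates progesterone, was at 36.9 and 22.4 CPM in dHD1/fl and at 0 and 1.07 in dHD1/- lines (log2 fold change -4.37 ± 0.66, SE; limma adjusted p 0.00973). It has closely related neighbours, and only uniquely aligned reads were counted by the authors, so its level is less certain than that of the others. Sema4a (chromosome 3, 88435959 to 88461182), a membrane-bound semaphorin, was at 19.8 and 21.7 CPM in dHD1/fl and 0.299 and 0.742 in dHD1/- lines. Its level differed by -3.85 ± 0.55 on the log2 scale (SE; limma adjusted p 0.00681), from 7 and 25 reads in the dHD1/- lines. Bcl11b (chromosome 12, 107910403 to 108004145), a zinc finger factor best known from T cell development, was at 6.31 and 6.41 CPM in dHD1/fl and had 0 and 5 reads in dHD1/- lines (log2 fold change -2.78 ± 0.49, SE; limma adjusted p 0.038).

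These calls rested on the spread shared over all 27 libraries, which include each line under 3 treatments and are not independent. With the 9 untreated libraries alone limma called 0 genes (530 at an unadjusted p under 0.05), with the 4 compared libraries alone 0 (264), and edgeR on recovered reads called 0 (668), against 644 in the fit reported here, so that all 9 calls were lost there. Without dHD1/fl line 1 the count was 81, and Lpl (adjusted p 0.113), Tbc1d9 (0.0677), Arhgef4 (0.0776) and Bcl11b (0.0642) were lost. Without dHD1/fl line 2 it was 229, with no call lost. Without dHD1/- line 1 it was 119, with Arhgef4 (0.0681) and Bcl11b (0.0788) lost, and without dHD1/- line 2 it was 32, with Bcl11b (0.12) lost. With a pseudocount of 0.1 in place of 1 the count was 5, with Akr1c18 (0.418), Pak6 (0.346), Lpl (0.11) and Bcl11b (0.0535) lost, and median-of-ratios scaling also lost Bcl11b (0.0564). Averaging dHD2/- lines 2 and 3, which were close to each other (correlation 0.993), an alternative chosen after seeing the data, left 5 calls, without Lpl, Arhgef4, Bcl11b and Tbc1d9.

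**Figure D3:**
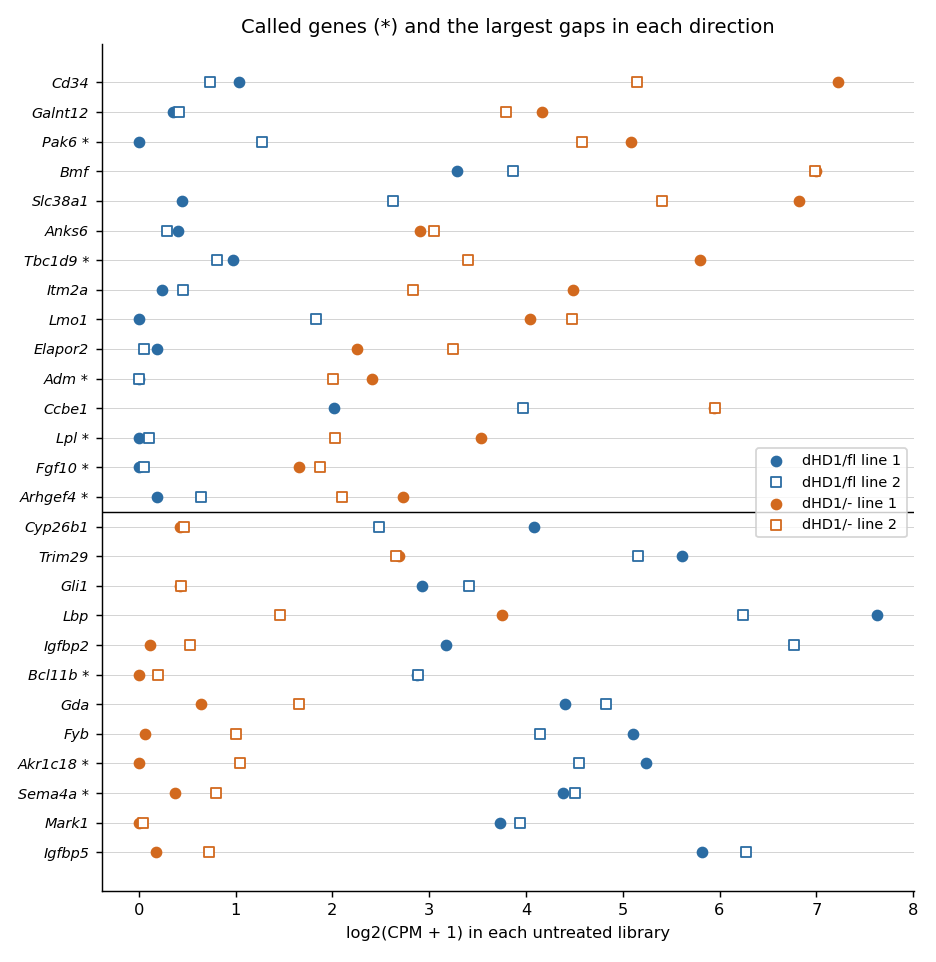
Level, as log2(CPM + 1), in each of the 4 untreated libraries (filled circles, line 1; open squares, line 2; blue, dHD1/fl; orange, dHD1/-) for the 9 called genes (starred) and the 12 genes of largest gap in each direction, ordered by gap. In each row both orange symbols lie on one side of both blue symbols, to the right for the 15 genes above the line and to the left for the 12 below it.

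Several of the largest gaps belonged to genes that did not pass the test. Cd34, a sialomucin of blood progenitors and endothelium, had the largest gap among the higher genes, at 1.05 and 0.671 CPM in dHD1/fl and 148 and 34.4 in dHD1/- lines (gap 4.11, limma adjusted p 0.13, 0.0332 without dHD1/- line 2 and 0.0204 with cell line as a random effect). It was high in both dHD1/- lines, while the sum of 10 endothelial markers was 0.932 to 4.12 CPM in the 4 libraries with Cdh5, Kdr, Tie1, Emcn and Cldn5 at 3 reads or fewer in each. Galnt12, which starts mucin-type O-glycosylation, was at 0.274 and 0.336 CPM in dHD1/fl and 17.0 and 12.9 in dHD1/- lines (adjusted p 0.362). Bmf, a BH3-only protein that promotes apoptosis, was at 8.74 and 13.6 CPM in dHD1/fl and at 127 and 126 in dHD1/- lines (adjusted p 0.461).

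Slc38a1, a neutral amino acid transporter, was at 0.366 and 5.18 CPM in dHD1/fl and 112 and 41.4 in dHD1/- lines, and Lmo1, a LIM-only adaptor known to bind Ldb1, at 0 and 2.57, then 15.5 and 21.2. The other 7 of the 12 largest gaps were those of Anks6 (0.32 and 0.224 CPM, then 6.50 and 7.27), a protein of primary cilia, and of Itm2a, Elapor2 and Ccbe1, beside Adm, Tbc1d9 and Pak6 given above. Ccbe1, a secreted protein needed for processing of Vegfc, was at 3.06 and 14.7 CPM in dHD1/fl and at 60.7 and 60.8 in dHD1/- lines. Ccbe1 and Vegfc were thus both among the 68 genes, each with an adjusted p of 1.00 (log2 fold change 2.95 ± 2.19 and 1.75 ± 1.43, SE).

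Among the lower genes the largest gap was that of Igfbp5, an insulin-like growth factor binding protein, at 55.4 and 76.2 CPM in dHD1/fl and 0.128 and 0.653 in dHD1/- lines (gap 5.09 in size, adjusted p 0.747). Igfbp2, of the same family, was at 8.05 and 108 CPM in dHD1/fl and 0.0855 and 0.445 in dHD1/- lines (adjusted p 0.863). Mark1, a kinase that acts on microtubule-associated proteins, was at 12.3 and 14.3 CPM in dHD1/fl lines and had 0 and 0.0297 CPM in dHD1/- lines (adjusted p 0.13). Both Igfbp genes and Mark1 were under 1 CPM in each dHD1/- line, and Mark1 was also called with cell line as a random effect (adjusted p 0.0204).

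Fyb, an adaptor protein best known from T cells, was at 33.5 and 16.7 CPM in dHD1/fl and 0.0428 and 1.01 in dHD1/- lines, and Gda, guanine deaminase, at 20.2 and 27.4, then 0.556 and 2.14. Gli1, a transcription factor and target of Hedgehog signalling that overlaps Arhgap9 on the genome, was at 6.59 and 9.66 CPM in dHD1/fl and 0.342 and 0.356 in dHD1/- lines. Trim29, of the tripartite motif family, was at 47.9 and 34.6, then 5.43 and 5.31 CPM. For these 4 genes the lower group was even between its lines or had its higher value in line 2, and limma's adjusted p was 0.264 to 1.00.

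The 43 lower genes also held Lbp and Il1rn, named by rule, and Lcn2, Slpi and Ptx3, named after their values were seen and standing for no group. Lbp, which binds lipopolysaccharide, was at 197 and 74.7 CPM in dHD1/fl and 12.5 and 1.75 in dHD1/- lines. Lcn2, lipocalin 2, was at 401 and 8.54, then 1.54 and 0.0297 CPM, and Slpi, a leukocyte protease inhibitor, at 1730 and 420, then 164 and 16.8. Il1rn, the interleukin 1 receptor antagonist, was at 74.9 and 208 CPM in dHD1/fl and 12.6 and 28.8 in dHD1/- lines, and Ptx3, a pentraxin, at 72.5 and 139, then 4.66 and 24.1. Lbp, Lcn2 and Slpi were higher in line 1 of each genotype and Il1rn and Ptx3 in line 2, and none of the 5 was called (limma unadjusted p 0.00192 to 0.131).

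Of the next 3 genes Stra6 and Dhrs3 were likewise named after their values were seen. Cyp26b1, which breaks down retinoic acid, was at 15.9 and 4.59 CPM in dHD1/fl and at 0.342 and 0.386 in dHD1/- lines (adjusted p 0.983). Stra6, the receptor for retinol-binding protein, was at 6.95 and 1.42 CPM in dHD1/fl lines and had 0 reads in both dHD1/- lines. Dhrs3, which reduces retinal to retinol, was higher in dHD1/- lines, at 4.16 and 8.24 CPM in dHD1/fl and 48.1 and 25.1 in dHD1/- lines. Stra6, Dhrs3 and the neighbouring basement membrane collagen genes Col4a5 and Col4a6 were thus without overlap and not called (adjusted p 0.717 to 1.00). Col4a5 was at 97.9 and 124 CPM in dHD1/fl and 331 and 449 in dHD1/- lines, and Col4a6, also chosen after its values were seen, at 107 and 49.7, then 216 and 549.

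It was then asked whether the 111 genes held their direction in other libraries. Under Wnt3a (100 ng/ml, 3 days) the same 4 lines gave groups without overlap in the same direction for 65 of the 68 higher genes (95.6%, against 13.7% of all tested genes) and for 40 of the 43 lower genes (93.0%, against 9.95%). Under TGFβ (2 ng/ml, 4 days) this held for 43 of 68 (63.2%, against 6.77%) and 30 of 43 (69.8%, against 22.7%), and under either cytokine no gene was found in the opposite order. The lines are the same, so these libraries show that a gene's order was kept in these lines and are no further lines of either genotype. Under both cytokines the untreated order was kept by 42 of the 68 genes (61.8%, against 3.32% of all tested genes higher under both) and 28 of the 43 genes (65.1%, against 6.16% lower under both), among them all 9 called genes, Cd34 and Mark1.

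With TGFβ the distance was smaller for several called genes. Akr1c18 was at 0.168 and 2.2 CPM in dHD1/fl and 0 and 0.072 in dHD1/- lines under TGFβ, a log2 difference of -0.90 ± 0.66 (SE, adjusted p 0.814 by limma). Adm was near the limit of detection there, at 0 CPM in both dHD1/fl and 0.0397 and 0.252 in dHD1/- lines. Pak6, in contrast, was at 0.0841 and 1.92 CPM in dHD1/fl and 17.6 and 23.3 in dHD1/- lines under TGFβ (log2 fold change 3.58 ± 0.57, SE; adjusted p 0.0303), and Tbc1d9 at 1.72 and 1.38, then 80.6 and 25.6 (adjusted p 0.0257). Whether the difference depended on the cytokine was not tested.

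The dHD2 lines, in which Bcl9 and Bcl9L lack the β-catenin-binding HD2 domain in place of HD1, share no library and no line with the dHD1 lines. There, without cytokine, 2 dHD2/fl lines were set against 3 dHD2/- lines. Of the 68 genes higher in dHD1/- lines, 2 were higher without overlap in dHD2/- lines (2.94%, against 12.4% of all tested genes), namely Swap70 and Lrrc14b, and 16 were lower (23.5%, against 14.9%). Of the 43 genes lower in dHD1/- lines, 16 were also lower in dHD2/- lines (37.2%, against 14.9% of all tested genes) and 2, Lcn2 and Mgst3, were higher (4.65%, against 12.4%). The 16 included Mark1, Bcl11b, Igfbp2, Cyp26b1, Stra6, Wnt4, Krt6a and Krt16.

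The difference between both comparisons was tested directly, and limma called 22 genes (0.166%), 20 with a higher value for dHD1 (0.151%) and 2 with a lower one (0.0151%). Pak6 was at 13.1 and 9.11 CPM in dHD2/fl and 0.524, 0 and 0 in dHD2/- lines, that is, high in dHD2/fl and low in dHD2/-, the reverse of its order in dHD1 lines (difference 7.57 ± 0.77 on the log2 scale, SE; limma adjusted p 0.000201). Arhgef4 was at 12.6 and 17.4 CPM in dHD2/fl and 5.07, 7.16 and 6.49 in dHD2/- lines (difference 3.15 ± 0.44, SE; adjusted p 0.00406). Tbc1d9 was at 78.4 and 62.3 CPM in dHD2/fl and 70.6, 85.1 and 91.4 in dHD2/- lines, above its level in both dHD1 genotypes. Among the untreated lines Arhgef4 and Tbc1d9 were thus lowest in dHD1/fl lines. For Adm the difference was 2.53 ± 0.29 (SE; adjusted p 0.000582), for Fgf10 1.95 ± 0.32 (SE; 0.0171) and for Lpl 3.39 ± 0.66 (SE; 0.0465). These genes were at 1.42 CPM or less in every untreated dHD2 library, with log2 changes of -0.32, -0.21 and -0.65 there. Their differences thus mostly repeat those of the dHD1 lines. The dHD1 libraries that gave the calls also enter this test, so it is no separate evidence for the called genes. For Bcl11b the difference was -0.58 ± 0.66 (SE; adjusted p 0.884), with 1.42 and 8.96 CPM in dHD2/fl and 0.218, 0 and 0 in dHD2/- lines. In the fit on the 9 untreated libraries limma called 0 genes for this difference (855 at an unadjusted p under 0.05), and with dHD2/- lines 2 and 3 averaged 4 were called, without Fgf10 (adjusted p 0.199) and Lpl (0.317). Lpl was also lost without dHD1/fl line 1 (0.12).

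**Figure D4:**
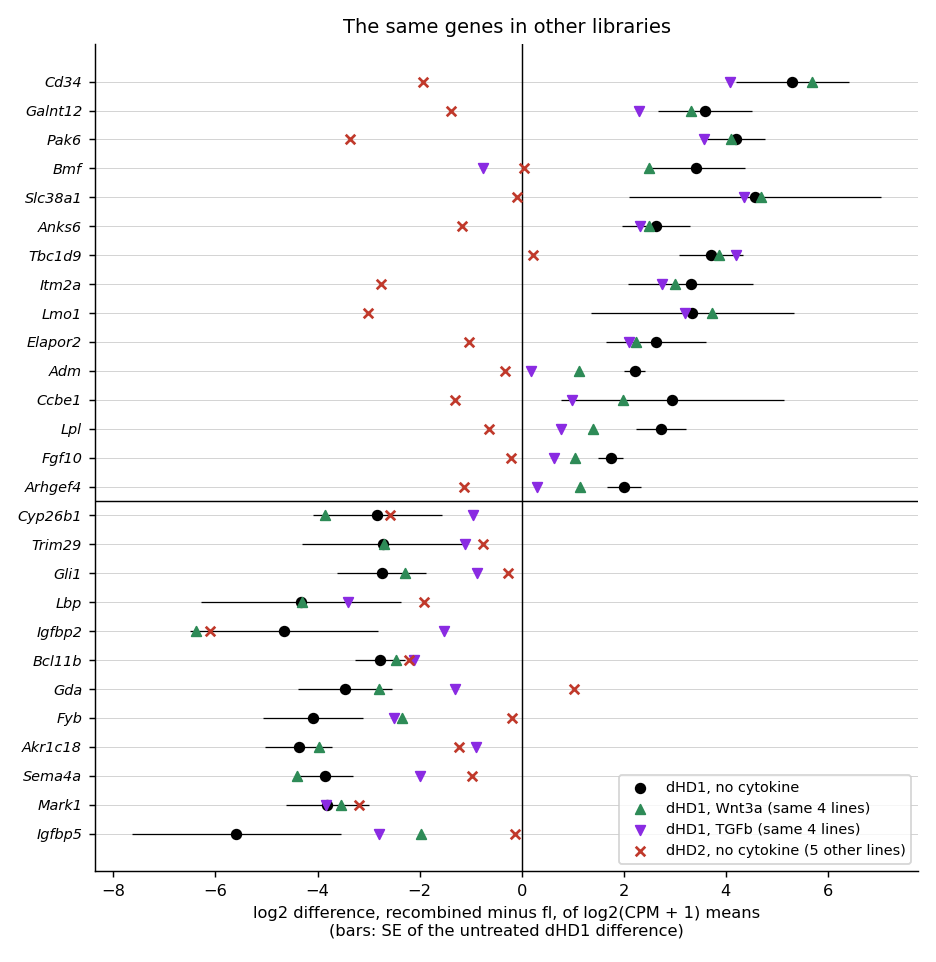
Difference of mean log2(CPM + 1), recombined minus fl genotype, on the horizontal axis for the 27 genes with calls or the largest gaps, in untreated dHD1 lines (black circles, bars show the SE), in the same lines under Wnt3a (green) and TGFβ (purple) and in untreated dHD2 lines (red crosses). The Wnt3a values lie on the same side of 0 as the black circles, Bmf under TGFβ lies on the other side, and Pak6 in dHD2 lines is at -3.37.

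Bcl9 and Bcl9l were not separated by genotype, and gene totals do not tell the mutant from the floxed allele. Bcl9 (chromosome 3, 97203658 to 97298402) was at 34.0 and 66.0 CPM in dHD1/fl and 44.5 and 67.8 in dHD1/- lines, and Bcl9l (chromosome 9, 44482738 to 44511906, overlapping Cxcr5) at 172 and 323, then 318 and 184. Pygo1 was at 0 and 4.14 CPM in dHD1/fl and 0.214 and 2.97 in dHD1/- lines, which overlapped. Pygo2, the Pygopus gene of epithelia, was even over the 4 libraries at 116, 123, 122 and 119 CPM, and Ctnnb1, β-catenin, was at 1395 and 1066, then 1481 and 975. Among 16 genes of the complex, 3 were higher without overlap and 1 was lower (18.8% and 6.25%, against 10.7% and 16.1% of all tested genes), with a median log2 fold change of 0.05 (all tested genes, -0.05). Tcf7, a TCF/LEF factor that overlaps Skp1, was the lower one, at 35.3 and 15.1 CPM in dHD1/fl and 11.0 and 11.2 in dHD1/- lines (limma adjusted p 0.765). Of the higher 3, Crebbp, a histone acetyltransferase, was at 70.2 and 66.6, then 90.3 and 86.4 CPM, while Med12 and Lef1 differed by a gap of 0.03 and 0.06. Lef1 had 0 reads in both dHD1/fl lines and 1 and 11 in dHD1/- lines, so dHD1/- line 1 lay within the limit of 3 reads.

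Of 21 tested Wnt target and feedback genes, 2 were higher and 4 lower without overlap (9.52% and 19%, against 10.7% and 16.1% of all tested genes, with a median log2 fold change of -0.21), shares near the background, and none was called by limma (2 lower at an unadjusted p of at most 0.05). Nkd2, a feedback inhibitor that binds Dishevelled, was at 608 and 13.8 CPM in dHD1/fl and 5.90 and 0.95 in dHD1/- lines (log2 fold change -4.70 ± 1.54, SE; limma adjusted p 0.646, and 0.0104 without dHD1/fl line 2). Notum, which inactivates Wnt ligands, was at 84.1 and 432, then 60.4 and 58.9 CPM, and Lgr6, an R-spondin receptor, at 16.5 and 1.64, then 0.812 and 0.119. Nkd2 and Lgr6 were higher in line 1 than in line 2 of each genotype, and Tcf7 was the other lower member. The best-known Wnt target, Axin2, was low without cytokine, at 0.32 and 1.45 CPM in dHD1/fl and 1.33 and 0.683 in dHD1/- lines, which overlapped.

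Of 28 tested Wnt ligands, receptors and secreted modulators, 7 were lower and 2 higher (25.0% and 7.14%, against 16.1% and 10.7% of all tested genes, with a median log2 fold change of -0.46), with 3 lower at an unadjusted p of at most 0.05 and none called. The receptor Fzd7 was at 439 and 128 CPM in dHD1/fl and 38.3 and 53.5 in dHD1/- lines (log2 fold change -2.37 ± 0.91, SE; limma adjusted p 0.823), and Fzd6 at 126 and 135, then 77.5 and 59.2. The ligand Wnt4, which acts downstream of progesterone in the mammary gland, was at 37.7 and 39.9 CPM in dHD1/fl and 15.9 and 1.72 in dHD1/- lines (adjusted p 0.793, and 0.00727 without dHD1/- line 1). Wnt4 and Fzd7 were also among the 43 genes with a gap of at least 1, and the groups of Wnt7b, Wnt10a and Sfrp1 overlapped. Wnt11 was higher, at 0.812 and 0.623 CPM in dHD1/- lines against 0 and 0.0373 in dHD1/fl lines (adjusted p 1.00).

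Of 28 TGFβ pathway genes, 5 were lower and 3 higher (17.9% and 10.7%, near the 16.1% and 10.7% of all tested genes, with a median log2 fold change of -0.43), with 2 lower at an unadjusted p of at most 0.05. Smad7, the inhibitory Smad, was at 119 and 78.7 CPM in dHD1/fl and 43.4 and 26.9 in dHD1/- lines (log2 fold change -1.48 ± 0.45, SE; limma adjusted p 0.591), and it was called without dHD1/fl line 2 (adjusted p 0.0179). Ltbp2, a matrix protein of the latent TGFβ-binding protein family, was at 291 and 80.0, then 29.6 and 1.57 CPM. Smad2 was at 123 and 88.1, then 71.0 and 71.0. Of 13 Notch pathway genes 3 were lower and 0 higher (23.1% and 0%), led by the ligand Jag2 at 4.99 and 44.3 CPM in dHD1/fl and 2.05 and 0.237 in dHD1/- lines (adjusted p 0.921).

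Of the keratins, the intermediate filament proteins of epithelia, none was higher without overlap. Of 17 tested keratins, 7 were lower without overlap and 0 higher (all tested genes, 16.1% and 10.7%), with a median log2 fold change of -0.52 and the same counts with median-of-ratios scaling. Krt6a was at 111 and 139 CPM in dHD1/fl and 1.15 and 27.8 in dHD1/- lines (log2 fold change -3.99 ± 1.42, SE; limma adjusted p 0.718), and Krt16, with which it is induced in stressed epidermis, at 58.8 and 34.5, then 11.1 and 7.33. Krt10 was at 4.07 and 4.51, then 1.97 and 2.64 CPM, whereas 4 of the 7 (Krt5, Krt15, Krt17 and Krt75) were at 2.38 CPM or less in all 4 libraries. Keratin genes are closely related, which makes the low values uncertain. The groups of Krt8, Krt14 and Krt18 overlapped, as did those of Cdh1 and Epcam, and of 34 epithelial junction genes only Tjp1 did not overlap (128 and 137, then 109 and 106 CPM).

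Of 18 basal mammary genes 6 were lower, Krt5 and Krt17 again among them, and 2 higher (33.3% and 11.1%), and of 17 luminal genes 1 was lower and 1 higher (5.88% each), against 16.1% lower and 10.7% higher of all tested genes. Of the basal genes, 0 had a limma unadjusted p of at most 0.05, and 0 of the lower ones had a gap of at least 1. Acta2, smooth muscle actin, had the largest gap of the basal list and was higher, at 0 and 0.261 CPM in dHD1/fl and 1.58 and 3.29 in dHD1/- lines (gap 1.03). The lower luminal gene was Erbb2, at 353 and 181 CPM in dHD1/fl and 160 and 95.6 in dHD1/- lines (log2 fold change -1.03 ± 0.38, SE; limma adjusted p 0.751). Among 33 mesenchymal and EMT genes 4 were higher and 3 lower (12.1% and 9.09%, the first near the 10.7% of all tested genes and the second below their 16.1%, with a median log2 fold change of 0.62). Tpm1, an actin-binding tropomyosin, was at 341 and 561 CPM in dHD1/fl and 1102 and 1323 in dHD1/- lines (adjusted p 0.921), and Twist2, an EMT factor, ran the other way, at 28.2 and 28.3, then 14.8 and 13.5. Axl, a receptor tyrosine kinase, was at 12.7 CPM in dHD1/fl line 1 and at 943, 1464 and 1265 in the other 3 libraries, and it was called when dHD1/fl line 2 was left out (adjusted p 0.000276).

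**Figure D5:**
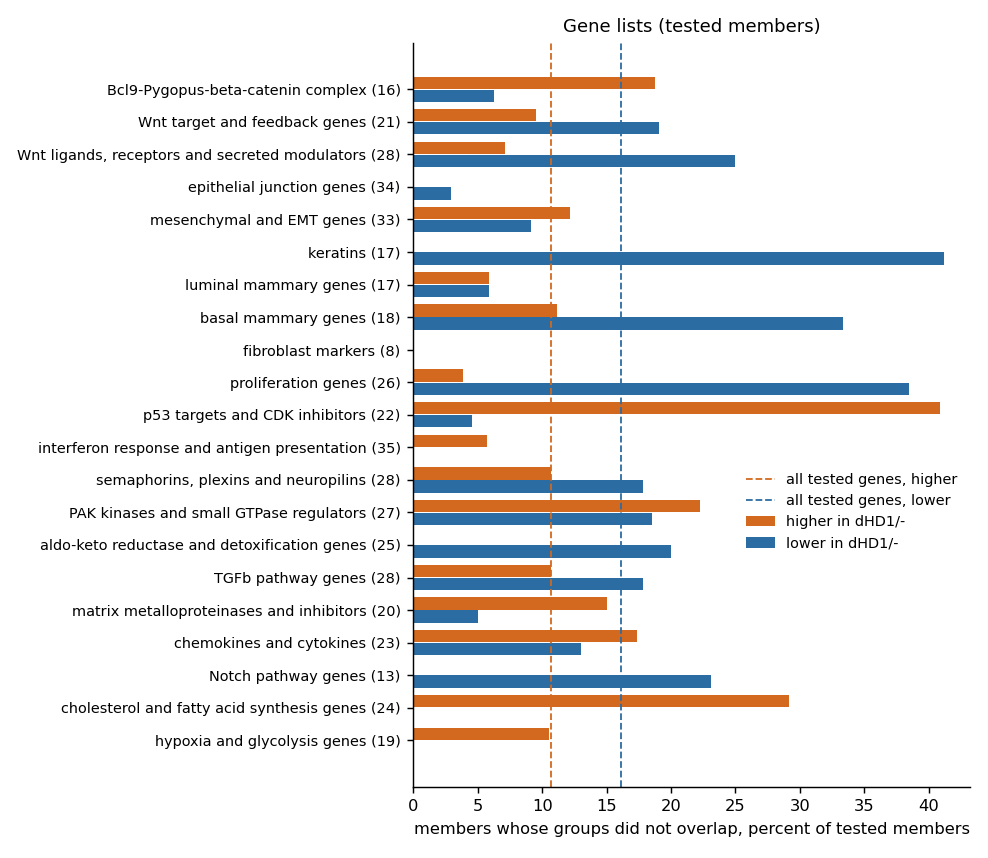
Percent of tested members of each gene list (number in brackets; leukocyte and endothelial markers, with 3 tested members each, are not drawn) whose dHD1/fl and dHD1/- values did not overlap, higher (orange) or lower (blue) in dHD1/-, with dashed lines for all 13270 tested genes (10.7% and 16.1%). The longest blue bars are those of keratins (41.2%), proliferation genes (38.5%) and basal genes (33.3%) and the longest orange bars those of p53 targets (40.9%) and cholesterol genes (29.2%), and several other lists also pass one or the other line.

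Among 22 tested p53 targets and cyclin-dependent kinase inhibitors 9 were higher and 1 lower (40.9% and 4.55%, against 10.7% and 16.1% of all tested genes, with a median log2 fold change of 0.66). With median-of-ratios scaling 10 were higher and 1 lower (45.5% and 4.55%), where the shares of all tested genes were 13.8% and 12.5%. Sesn2, a stress-induced sestrin, was at 22.5 and 22.3 CPM in dHD1/fl and 44.8 and 41.5 in dHD1/- lines (log2 fold change 0.91 ± 0.28, SE; limma adjusted p 0.599). Cdkn1a, p21, was at 133 and 82.6, then 163 and 169 CPM, and Zmat3 at 144 and 91.8, then 242 and 220. The members differed less than 2-fold on average in most cases, Trp53 itself was at 175 and 230, then 203 and 186 CPM, and 1 member had an unadjusted p of at most 0.05.

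Of 26 proliferation genes 10 were lower and 1 higher (38.5% and 3.85%, against 16.1% and 10.7% of all tested genes, median log2 fold change -0.18). With median-of-ratios scaling 9 were lower and 2 higher (34.6% and 7.69%, against 12.5% and 13.8%). In the CPM scaling the unadjusted p of none reached 0.05. Rrm2, a subunit of ribonucleotide reductase, was at 233 and 205 CPM in dHD1/fl and 137 and 126 in dHD1/- lines, Pcna, the replication clamp, at 262 and 200, then 139 and 146, and Ccne1, cyclin E1, at 38.1 and 29.1, then 18.7 and 19.3. Members that overlapped, named after their values were seen, included the replication genes Mcm4 (159 and 201, then 160 and 165 CPM) and Mcm5 (300.0 and 385, then 407 and 253) and the proliferation marker Mki67 (250 and 269, then 186 and 330). The other Mcm genes of the list, Mcm2, Mcm3, Mcm6 and Mcm7, were lower without overlap (gaps -0.1, -0.23, -0.3 and -0.2).

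Of 24 cholesterol and fatty acid synthesis genes 7 were higher and 0 lower (29.2% and 0%, against 10.7% and 16.1% of all tested genes, median log2 fold change 0.17). With median-of-ratios scaling 10 were higher and 0 lower (41.7% and 0%, against 13.8% and 12.5%). In the CPM scaling 3 were higher at an unadjusted p of at most 0.05. Insig1, which holds the SREBP factors in check and is one of their targets, was at 33.8 and 36.0 CPM in dHD1/fl and 66.0 and 130 in dHD1/- lines (log2 fold change 1.39 ± 0.35, SE; limma adjusted p 0.347), and it was called without dHD1/- line 1 (adjusted p 0.0136). Scd2, a fatty acid desaturase, was at 921 and 1363 CPM in dHD1/fl and 2632 and 1945 in dHD1/- lines (adjusted p 0.929).

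Of 27 PAK kinases and small GTPase regulators 6 were higher and 5 lower (22.2% and 18.5%, the second near the background of 10.7% and 16.1%), and 6 and 3 with median-of-ratios scaling (22.2% and 11.1%, against 13.8% and 12.5%), with Pak6 called and Rnd1, an atypical small GTPase, at 8.32 and 6.38 CPM in dHD1/fl and 29.4 and 21.2 in dHD1/- lines. Of 28 semaphorins, plexins and neuropilins 3 were higher and 5 lower (10.7% and 17.9%, near the background), with Sema4a called. Sema3c, a secreted semaphorin, was at 195 and 161, then 41.8 and 58.7 CPM (log2 fold change -1.82 ± 1.06, SE; limma adjusted p 1.00), and Sema6b at 0.366 and 0.82, then 2.78 and 13.5. Of 25 aldo-keto reductase and detoxification genes 0 were higher and 5 lower (0% and 20%, against 10.7% and 16.1% of all tested genes), with Akr1c18 called.

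In the remaining lists the counts of higher and lower members were 3 and 1 of 20 for metalloproteinases and their inhibitors (15% and 5%), 4 and 3 of 23 for chemokines and cytokines (17.4% and 13%), 2 and 0 of 35 for interferon response genes (5.71% and 0%) and 2 and 0 of 19 for hypoxia and glycolysis genes (10.5% and 0%), against 10.7% and 16.1% of all tested genes. Adamts1, a matrix protease, was at 6.04 and 12.2 CPM in dHD1/fl and 270 and 29.8 in dHD1/- lines. Markers of other cell types were set beside these results. The sum of 12 fibroblast markers was 44.7 and 2650 CPM in dHD1/fl lines and 231 and 6466 in dHD1/- lines, in which Col1a1 was at 11.5 and 659, then 6.46 and 2603, with Lum, Fap, Pi16, Dpt and Thy1 at 3 reads or fewer in all 4 libraries. It followed the line number as Vim did, and 0 of the 8 tested members separated the genotypes. The sum of 12 leukocyte markers was 9.45 to 186 CPM, highest in dHD1/- line 2, where Csf1r was at 165 CPM (called without dHD1/- line 1, adjusted p 0.00504), and 7 of the 12, Ptprc, Cd3e and Adgre1 among them, were at 3 reads or fewer in all 4 libraries.

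Because Bcl9 and Pygopus act with TCF/LEF factors, promoters were searched for the TCF/LEF core. RefSeq promoters (GRCm38.p6, 250 bases before to 50 bases after each start) were searched for CTTTGAT and CTTTGAA on either strand, a core that overlaps the longer TCF/LEF motifs. It was present in 6 of 49 higher genes with a promoter sequence (12.2%), in 4 of 33 lower genes (12.1%) and in 747 of 10461 tested genes (7.14%). The windows of 7 of these genes are shown, among them the called genes Arhgef4 and Bcl11b, with the core in capitals and each read 5′ to 3′ on the strand of its gene.
Arhgef4, chr1:34677932-34677958, plus strand: acctaggggATCAAAGggtggaggtaa
Swap70, chr7:110221532-110221560, plus strand: gcacatgcgagCTTTGAAaatggcctgag
Lmo1, chr7:109175427-109175455, minus strand: tgaataattgaTTCAAAGggggggaaggg
Dhrs3, chr4:144893021-144893049, plus strand: ttaatcttgcaCTTTGAAaccgcggactg
Bcl11b, chr12:108003486-108003514, minus strand: gaggccaagcaCTTTGAAgaagtgtgaga
Stra6, chr9:58129193-58129221, plus strand: gaaactcagccATCAAAGccctggcttct
Sgk1, chr10:21978482-21978510, plus strand: acacctaagagCTTTGATgtttcaaagtc

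The first 4 of these genes were higher and the last 3 lower in dHD1/- lines. Swap70, an exchange factor for Rac, was at 63.2 and 54.0 CPM in dHD1/fl and 163 and 161 in dHD1/- lines, and Sgk1, a kinase induced by glucocorticoids, at 599 and 234, then 94.8 and 86.2. A second core, on the opposite strand, follows in lower case in the window of Sgk1. Swap70 and Sgk1 were named after their values were seen. The matches are a description of these letters and not evidence of binding.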

How the data were processed

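Poly(A) RNA of 27 libraries from 9 cell lines was sequenced by the authors with a stranded kit as single reads, aligned with STAR to mm10 with unique hits kept, and counted over RefSeq exons with QuasR (strand setting not given in the sources used here). The labels name a NovaSeq, and the methods name it and a NextSeq. The table they deposited gave CPM values (reads of a gene per 1000000 reads) of 24454 genes, of which 24374 had a symbol. CPM steps gave back whole reads (100% of values within 0.05 reads). The 13270 genes that reached 1 CPM in 2 or more libraries entered 1 limma fit (3.58.1, trend and robust, R 4.3.3) of log2(CPM + 1) over all 27 libraries and 12 group means. A call required p, adjusted by Benjamini and Hochberg's method, to be 0.05 or less and the log2 change to be 1 or more in size, and tests were two-sided. edgeR 4.0.16 on recovered reads was an alternative, since CPM values are not counts. The fits were also run on simulated data. There the libraries were independent and the lines did not differ, so that run cannot show how reliable the calls are here.

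The comparison and the 23 gene lists were chosen with earlier results of these data known. Genes were named by rule: Bcl9, Bcl9l, Pygo1, Pygo2 and Ctnnb1, the called genes, the 12 largest gaps in each direction, up to 4 members of each list (those of largest gap without overlap, otherwise the most abundant), the identity markers, and the genes next to a gap of 1. Other genes were named after their values were seen. No p was adjusted over a list alone. Per the labels a genotype had 2 lines from 2 mice, and the source of the third dHD2/- line is not given in the sources used here. Authors' statistics were not used. Results of a few genes are not reported here.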

Additional observations from a re-analysis of the deposited data

Results flagged for a closer look

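For 5 of the named genes the difference between dHD1/- and dHD1/fl lines was itself different from the difference between dHD2/- and dHD2/fl lines, both without cytokine (limma, test of the difference, dHD1 minus dHD2, on the log2 scale). It was 7.57 for Pak6, with adjusted p from 5.16e-05 to 0.115 over 11 alternatives, and 2.53 for Adm (3.38e-06 to 0.242) and 3.15 for Arhgef4 (0.000575 to 0.295), each called in 10 of the 11. It was 1.95 for Fgf10 (0.000833 to 0.384, called in 9) and 3.39 for Lpl (0.000687 to 0.571, called in 8). All 5 were lost when the 9 untreated libraries were fitted alone. These genes had been called from the same dHD1 libraries that enter this test, so it is no separate evidence for them. The other 4 genes called in dHD1 lines did not pass this test, with Tbc1d9 at 3.49 (adjusted p 0.145), Sema4a at -2.87 (0.174), Akr1c18 at -3.14 (0.231) and Bcl11b at -0.58 (0.884).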

How the results depend on the processing

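With 2 lines per genotype, 1 line decided many values. The 9 called genes became 5 with a pseudocount of 0.1, 14 without a filter, 13 with cell line as a random effect, 9 (7 higher and 2 lower, against 6 and 3) with median-of-ratios scaling, 500 with unadjusted p up to 0.05 and 1.5-fold, and 5 with dHD2/- lines 2 and 3 averaged, an alternative chosen after seeing the data. They became 0 with the 9 untreated or the 4 compared libraries alone and 0 with edgeR, and ranged from 32 to 229 with 1 line left out. Akr1c18, Lpl, Pak6 and Bcl11b were lost with the pseudocount of 0.1, and Bcl11b with median-of-ratios scaling (adjusted p 0.0564). A lone line left in a group was assumed to vary like the other groups. For the difference from dHD2 lines the 22 genes became 0 with the 9 untreated libraries, 38 with the random effect, 4 with dHD2/- lines averaged and 69 to 212 with 1 line left out, and the 4 compared libraries cannot give it. The gap counts of 68 and 43 became 144 and 79 with a pseudocount of 0.1. Of the 111 genes, 105 kept their order under Wnt3a and 73 under TGFβ, and 105 and 75 with median-of-ratios scaling (chosen after seeing the data). With the replicate number as a block (replicate block) there were 37 and 146 calls, and all 9 calls were kept. Among the named genes it also called Cd34, Galnt12, Itm2a, Mark1, Gda, Gli1, Nkd2, Erbb2 and Sema6b (adjusted p 0.000484 to 0.0436). The sources do not say that equal numbers share a mouse, and the 2 pairs correlated at 0.472, 0.407 and 0.117 without cytokine, under Wnt3a and under TGFβ. Of 1404 values of named genes under alternatives, 1313 kept direction and call, 21 gained and 43 lost a call, and 27 changed sign, none of a called gene. The changes of sign were Pygo1 at 0.59 and Cdh1 at -0.23 with a pseudocount of 0.1, Ctnnb1 at 0.06 with median-of-ratios scaling and 0.06 with edgeR, and otherwise came with 1 line left out. Those ranges were -0.26 to 0.68 for Bcl9, -0.41 to 0.49 for Bcl9l, -1.23 to 1.13 for Pygo1, -0.03 to 0.06 for Pygo2, -0.32 to 0.28 for Ctnnb1, -4.62 to 4.75 for Cdh1, -2.54 to 2.01 for Vim, -4.59 to 3.92 for Epcam, -0.19 to 9.68 for Krt8, -2.55 to 0.75 for Krt14, -3.82 to 5.05 for Krt18, -3.61 to 4.84 for Col1a1 and -1.20 to 5.75 for Csf1r. The cause was not tested. Genes near 3 reads are limited by depth.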

Other observations

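Among lists tested above, Cdkn2a and Cdkn2b, neighbouring inhibitors of cyclin-dependent kinases, were read in dHD1/fl line 1 (27.9 and 33.9 CPM) and had 0 reads in dHD1/fl line 2 and in both dHD1/- lines. Krt8 in dHD1/- line 2 stayed high under cytokine, at 988 CPM under Wnt3a and 2884 under TGFβ, while Krt18 in that line was at 2.11 and 29.2.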
